A study of Arabidopsis thaliana with 13 samples.

Results

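Viable paternal excess was compared with the balanced cross in developing seeds of Arabidopsis thaliana. The comparison set the 2 arrays of 2xX4x siliques, from a diploid seed parent pollinated by a tetraploid pollen parent, against the 2 arrays of 2xX2x siliques, in which both parents were diploid, so that it used 4 of the 13 arrays of the series. Every parent in both crosses was of the accession C24. The seed parent was in each case a diploid made male sterile by an A9-barnase transgene, which expresses a ribonuclease in the tapetum, the tissue that nourishes pollen, and the pollen parents carried no genetic modification. By the labels the crosses therefore differed in the ploidy of the father alone. Whole siliques were harvested 5 days after pollination, pooled over several plants for each sample and hybridised to Affymetrix ATH1 arrays, with 2 biological replicates per cross. Silique wall and seed coat, which are maternal tissues, contributed RNA beside the embryo and endosperm, and in such bulk RNA fewer cells of a type and less transcript per cell cannot be told apart. The remaining arrays held 2 samples each of 2xX6x (same mother, hexaploid Col-1 father) and 4xX2x (tetraploid C24 mother with A9-barnase, diploid C24 father). They also held 2 samples each of 6xX2x (hexaploid Col-1 mother, C24 father) and fis1X2x (a fis1-3 mutant mother of accession Ler, C24 father). The last array held 1 sample of unfertilised msi1 siliques. These came from male-sterile offspring of msi1 mutants crossed with C24 A9-barnase plants. Their age was counted from flower opening and not from pollination. From microscopic inspection, the paper proposes that their stage was similar to that of the balanced cross 5 days after pollination.

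In flowering plants the endosperm, which feeds the embryo, receives more genomes from the mother than from the father, and its growth depends on the balance between them. An extra paternal genome is known for prolonged proliferation and delayed cellularisation of the endosperm and for large seeds, whereas an extra maternal genome gives early cellularisation and small seeds. Type I MADS-box transcription factors and small secreted cysteine-rich peptides are gene families known to be active in this tissue.

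The deposited signals are MAS5 intensities on a linear scale. Log2 differences given here are differences of log2(signal + 7.4), where the offset of 7.4 is the 20th percentile of all signals, and they understate the change of dim genes. After removal of 64 control probe sets, 15823 of 22746 probe sets were bright enough on at least 2 arrays to be kept. Only 8703 of the kept probe sets had a single annotated gene, so that many well-studied seed genes could not be named. The arrays had been scaled to the same trimmed mean. The 2xX4x arrays differed from each other by a root mean square of 0.429 (log2), the smallest replicate difference among the 6 crosses, and the 2xX2x arrays by 0.701, the largest. Both 2xX2x arrays and both 2xX4x arrays had similar actin 3′ to 5′ ratios, between 9.19 and 13.6.

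Size was measured in a pair of ways, because a design of 2 arrays against 2 leaves few calls after adjustment. By the first, a probe set was taken as apart if its lower 2xX4x array lay at least 1 on the log2 scale above the higher 2xX2x array, or its higher 2xX4x array at least 1 below the lower 2xX2x array. This held for 94 probe sets that were higher in 2xX4x (0.594% of the 15823) and 19 that were lower (0.120%), so that 83.2% of the 113 were higher. With the separation lowered to 0.6 the numbers were 221 higher (1.40%) and 92 lower (0.581%), and with the separation raised to 2 they were 19 higher (0.120%) and 1 lower (0.00632%). Without any minimum, the arrays of the crosses did not overlap for 2495 probe sets in the upward direction (15.8%) and 2416 in the downward direction (15.3%), so that the preponderance of higher signals in 2xX4x was seen among large differences and not among small ones. The median change over all kept probe sets was -0.002.

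By the second measure, the mean difference between the crosses, 269 probe sets were at least 1 higher in 2xX4x and 172 at least 1 lower. The arrays bore out these means unequally. Of the 269, all 4 pairings of a 2xX4x with a 2xX2x array gave a rise of at least 1 in 94. In a further 141 all 4 pairings rose but not every one by at least 1, whereas in 34 the pairings disagreed in sign. Of the 172, the corresponding numbers were 19, 118 and 35. The 2xX2x arrays themselves differed by at least 1 in 103 of the 269 and in 85 of the 172, compared with 14 and 31 for the 2xX4x arrays. Over all kept probe sets the differences of replicate 1 (2xX4x minus 2xX2x) and those of replicate 2 correlated weakly across probe sets (Pearson r = 0.158, n = 15823), and the crossed pairs gave r = -0.172. These are descriptions across probe sets, which share arrays and are not independent replicates.

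**Figure D1:**
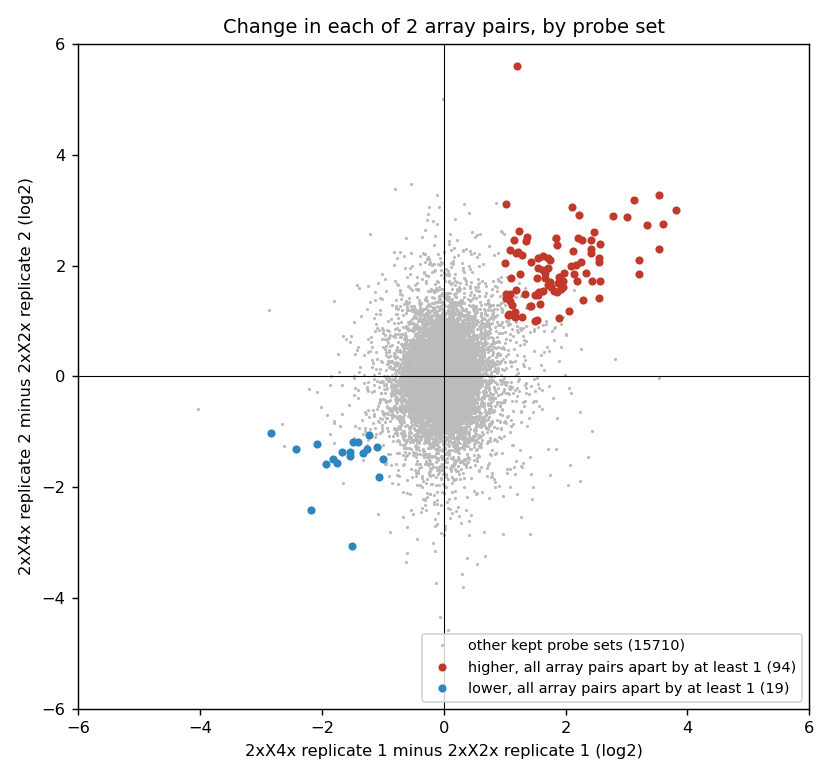
Log2 difference between 2xX4x and 2xX2x for each kept probe set, replicate 1 on the horizontal axis and replicate 2 on the vertical axis. The 94 probe sets apart upwards (red) and the 19 apart downwards (blue) lie in opposite corners, and the remaining probe sets (grey) form a cloud with little slope.

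Set against the same 2 control arrays, 2xX4x had the smallest measured change of the 5 crosses. The root mean square of its mean change was 0.394, compared with 0.503 in 2xX6x, 0.649 in 4xX2x, 0.655 in fis1X2x and 0.679 in 6xX2x. By the same rule of size 283 probe sets were apart in 2xX6x, 528 in 4xX2x, 491 in fis1X2x and 556 in 6xX2x. The higher share was 58.0% in 2xX6x, 40.5% in 4xX2x, 41.1% in fis1X2x and 49.5% in 6xX2x. These numbers share the 2xX2x arrays, and all but those of 4xX2x also set another accession against C24. The root mean square also contains the spread between replicates. Replicate arrays differed by 0.429 in 2xX4x, 0.605 in 2xX6x, 0.633 in 4xX2x, 0.668 in fis1X2x and 0.693 in 6xX2x. The 0.394 of 2xX4x was below its own 0.429, and how far this spread sets the order of the crosses was not tested.

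**Figure D2:**
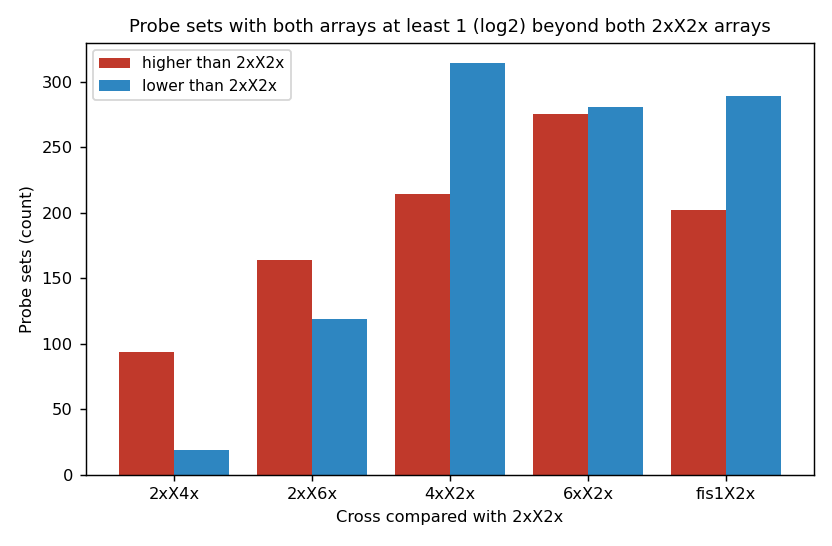
Number of kept probe sets whose 2 arrays both lay at least 1 (log2) above (red) or below (blue) both 2xX2x arrays, for each cross. 2xX4x had 94 higher and 19 lower, the smallest total of the 5.

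Across all 15823 probe sets, a limma fit to the 12 arrays of the replicated crosses with Benjamini-Hochberg adjustment called 12 probe sets higher in 2xX4x (0.0758%) and 1 lower (0.00632%), and 443 had an unadjusted p under 0.05 (2.80%). All 13 were also apart by size. The 12 rises were between 1.68 and 3.41 on the log2 scale, with adjusted p between 0.0199 and 0.0434. Of these, 5 had a single annotated gene, and another 5 had several genes and were not named here. The 1 fall, of 3.15-fold (adjusted p = 0.0434), belonged to a probe set with no gene listed. These calls depended on each of the 4 arrays. Removal of the first or the second 2xX2x array or of 2xX4x replicate 1 left 0 calls (with 1082, 328 and 389 probe sets at an unadjusted p under 0.05), and removal of 2xX4x replicate 2 left 1. Arrays outside the comparison contributed to the shared error: with either array of 2xX6x removed 4 calls were left, and with either of 4xX2x removed 7. A limma fit of the 4 arrays alone gave 0 calls (605 at an unadjusted p under 0.05), as did one of the 6 all-C24 arrays (536) and one with no offset (400).

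The 5 named genes that rose were a gene annotated to a glycosyl hydrolase family, a GASA gene, a carboxypeptidase gene, a receptor kinase gene and a gene of unknown function. AT2G43670, which the paper annotates to glycosyl hydrolase family 17, had signals of 12.7 and 12.8 in 2xX2x and of 167 and 176 in 2xX4x. The arrays of each cross were nearly alike, and the gene rose by 3.15 on the log2 scale (SE 0.37, adjusted p = 0.0207, limma). AT2G20170 had signals of 2.5 and 17.4 in 2xX2x and of 132 and 192 in 2xX4x. This was the largest change among all kept probe sets (log2 3.41, SE 0.51, adjusted p = 0.0434), although the 2xX2x arrays lay on either side of the offset. AT1G61500, of the S-locus lectin receptor kinase family, had signals of 0.7 and 1.1 in 2xX2x, near the bottom of the scale, and of 48.4 and 55.5 in 2xX4x (log2 2.84, SE 0.41, adjusted p = 0.0367).

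AT2G30810 belongs to the GASA family, gibberellin-regulated small secreted peptides rich in cysteine. It had signals of 166 and 278 in 2xX2x and of 1582 and 1212 in 2xX4x, and rose by 2.65 on the log2 scale (SE 0.34, adjusted p = 0.0235, limma). It was the brightest of the 5, well above the offset in both crosses. By quantitative RT-PCR, too, the paper reports strong overexpression of this gene in viable paternal excess. The other 3 GASA genes tested had overlapping arrays, with mean differences between 0.01 and 0.20 on the log2 scale. The study had designed primers for quantitative RT-PCR of this gene, which lies on chromosome 2, and their sequences are shown 5′ to 3′ because it was the brightest gene called.
AT2G30810 forward: ttgtctttgttatatccagtttg
AT2G30810 reverse: atgcctttggacattcttc

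The gene scpl47, which encodes a serine carboxypeptidase-like enzyme, had signals of 114 and 93.4 in 2xX2x and of 390 and 308 in 2xX4x (log2 1.68, SE 0.24, adjusted p = 0.0367). Of 19 serine carboxypeptidase-like genes tested, it was the single one called, against 0.0758% of all kept probe sets called higher. A relative, scpl46, stood apart in the opposite direction, with signals of 15.8 and 17.8 in 2xX2x and of 1.8 and 2.3 in 2xX4x, but was not called (adjusted p = 1.00).

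Of the 94 probe sets apart upwards 59 had a single annotated gene, all 59 protein coding and 5 of them called. Their changes ranged from log2 1.08 to 3.41, with a median of 1.78. Most began from a low level. The median of the mean 2xX2x signal over the 94 probe sets was 28.8, against 84.0 over all kept probe sets, and 18 of the 94 had both 2xX2x signals under the offset. In 2xX4x the median was 150, against 83.8 over all kept probe sets. The 59 genes were spread over the 5 chromosomes (11, 11, 8, 13 and 16 on chromosomes 1 to 5).

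Defensin-like peptides, small secreted proteins held together by disulphide bridges, included 2 of the largest differences. AT3G24510 had signals of 30.6 and 27.7 in 2xX2x and of 216 and 178 in 2xX4x (log2 2.48, SE 0.38), just short of the threshold (adjusted p = 0.0524). LCR24 had signals of 25.7 and 46.8 in 2xX2x and of 297 and 188 in 2xX4x (log2 2.52, SE 0.41, adjusted p = 0.0651). The arrays of the crosses were widely separated for both genes. AT5G54220, which the paper also annotates as defensin-like, was at 62.4 and 54.9 in 2xX2x and 265 and 123 in 2xX4x. Its separation was 0.9 (log2 1.51, SE 0.39, adjusted p = 0.544, limma). Of 6 genes tested that carry LCR or PDF symbols, LCR24 alone was apart upwards, against 0.594% of all kept probe sets. Those 6 do not include AT3G24510 or AT5G54220 and do not stand for all defensin-like genes. LCR69, at 2500 and 3438 in 2xX2x, had lower signals of 1408 and 1793 in 2xX4x (log2 -0.88, SE 0.47, adjusted p = 1.00).

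Among cell wall genes EXPA21, an expansin, which loosens cell walls, had signals of 29.8 and 27.7 in 2xX2x and of 193 and 108 in 2xX4x (log2 2.07, SE 0.39, adjusted p = 0.152). It was the single member apart among 14 expansins, whose median change was 0.06, against 0.594% of all kept probe sets apart upwards. The xyloglucan endotransglucosylases (3 tested) and the acetyltransferases of the TBL family (20 tested) held no gene that was apart by size. AT1G73560, a lipid transfer family gene, had signals of 38.1 and 39.2 in 2xX2x and of 244 and 278 in 2xX4x (log2 2.54, SE 0.63, adjusted p = 0.507).

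Of 10 cytochrome P450 genes tested, which encode oxidative enzymes, 2 were apart upwards, compared with 0.594% of all kept probe sets. CYP79A2, which makes an aldoxime from phenylalanine, had signals of 9.1 and 4.1 in 2xX2x and of 57.6 and 34.4 in 2xX4x (log2 1.92, SE 0.59, adjusted p = 0.988). CYP71B25 had signals of 6.3 and 9.5 in 2xX2x and of 45.9 and 48.1 in 2xX4x (log2 1.84, SE 0.43, adjusted p = 0.414). FOLB1, an enzyme of folate synthesis, had signals of 84.7 and 56.7 in 2xX2x and of 241 and 262 in 2xX4x (log2 1.75, SE 0.34, adjusted p = 0.167). UGT84B1, which attaches glucose to auxin, was the single member apart upwards among 22 UDP-glycosyltransferases, at 10.7 and 7.9 in 2xX2x and 32.0 and 29.9 in 2xX4x. None of these 4 genes passed the threshold.

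Type I MADS-box factors gave a divided picture among the 13 of 28 listed genes that could be tested. PHE1, PHE2 and AGL45, which the paper lists as up in 2xX4x, were not among those 13. AT4G36590, which the paper names AGL40, had signals of 36.9 and 20.6 in 2xX2x and of 251 and 116 in 2xX4x (log2 2.35, SE 0.65, adjusted p = 0.709). It lies on chromosome 4, and the study had designed primers for it too, which are given 5′ to 3′ because it had the largest change of its family here.
AT4G36590 forward: aaggagaaacagaagagaatgg
AT4G36590 reverse: ttggtggtgtatgattggg

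AT5G26630, which the paper names AGL35, had signals of 7.4 and 2.7 in 2xX2x and of 30.8 and 50.5 in 2xX4x (log2 1.94, SE 0.42, adjusted p = 0.289). Both were apart by size and neither was called. Among 11 further type I genes matched by their symbols, none was called or apart by size, 3 had 2xX4x arrays above both 2xX2x arrays and 1 had them below, against 15.8% and 15.3% of all kept probe sets. AGL33 was at 63.8 and 48.7 in 2xX2x and 96.1 and 104 in 2xX4x. AGL80, which is needed by the central cell from which the endosperm arises, was at 45.3 and 66.2 in 2xX2x and 7.1 and 28.5 in 2xX4x (log2 -1.45, SE 0.50, adjusted p = 1.00). For AGL62, which acts against cellularisation of the endosperm, the arrays overlapped at this low level, with signals of 8.6 and 4.7 in 2xX2x and of 16.4 and 7.5 in 2xX4x. The arrays of AGL28 overlapped as well. By quantitative RT-PCR the paper reports AGL62, AGL28 and AGL40 as overexpressed in viable paternal excess. For AGL62 and AGL28 the array signals used here did not show this rise.

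The levels of these genes in the crosses most like 2xX4x were not alike, and the direct tests share the 2xX4x arrays with the comparison that chose the genes. In a first set, among the 4 crosses with a C24 mother, the signal was lowest in 4xX2x, intermediate in 2xX2x and higher again in 2xX4x and 2xX6x. AT3G24510 was at 0.3 and 1.2 in 4xX2x and at 1589 and 1552 in 2xX6x, so that it was 2.95 higher on the log2 scale in 2xX6x than in 2xX4x (adjusted p = 0.00844, limma; 0.341% of all probe sets were called in this contrast). EXPA21 was at 1.7 and 2.0 in 4xX2x and at 1218 and 1203 in 2xX6x, 3.00 above 2xX4x (adjusted p = 0.00844). AT2G30810 was at 13.2 and 18.5 in 4xX2x, a log2 difference of -5.91 from 2xX4x (adjusted p = 9.72e-06; 3.21% of all probe sets were called in the contrast of 4xX2x with 2xX4x). Its signals of 3828 and 4131 in 2xX6x were 1.52 above 2xX4x but within the error of the fit (adjusted p = 0.157). For scpl47, at 8.4 and 9.6 in 4xX2x and 743 and 604 in 2xX6x, the difference of 0.94 between 2xX6x and 2xX4x did not pass either (adjusted p = 0.275).

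In a second set the highest of the ploidy crosses was 2xX4x itself. AT5G37520 had signals of 59.3 and 108 in 2xX2x, of 238 and 363 in 2xX4x and of 50.8 and 30.2 in 2xX6x, where it was lower than in 2xX4x (log2 -2.69, adjusted p = 0.0266, limma). It was also low in 4xX2x, at 9.0 and 18.3. AT2G43670, at 86.3 and 57.6 in 2xX6x, and AT2G20170, at 93.5 and 56.9, had lower signals in 2xX6x than in 2xX4x, but these differences did not pass the threshold (adjusted p = 0.569 and 1.00). The father of 2xX6x was of another accession, so that a difference between the 2 paternal excess crosses in ploidy and one in accession cannot be told apart.

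A further pattern was seen for AT1G61500 and AT4G29200, which were high in both crosses with a tetraploid C24 parent, whether that parent was the mother or the father. AT1G61500 had signals of 224 and 145 in 4xX2x and of 48.4 and 55.5 in 2xX4x, and lay between 0.7 and 4.3 on all 8 arrays of 2xX2x, 2xX6x, fis1X2x and 6xX2x. AT4G29200 had signals of 455 and 437 in 4xX2x and of 77.8 and 73.7 in 2xX4x, against 10.8 and 3.4 in 2xX2x and 9.0 and 12.4 in 2xX6x, and lay between 0.8 and 36.8 in fis1X2x and 6xX2x. For AT4G29200 the difference of 2.45 (log2) between 4xX2x and 2xX4x passed the threshold (adjusted p = 0.0468), whereas the difference from 2xX2x did not (log2 2.57, SE 0.58, adjusted p = 0.334). For AT1G61500 the difference of 1.67 between 4xX2x and 2xX4x did not (adjusted p = 0.0557), and the difference between 2xX6x and 2xX4x did (log2 -2.74, adjusted p = 0.0170). Both genes were also bright on the array of unfertilised msi1 siliques, at 49.9 and 251.

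**Figure D3:**
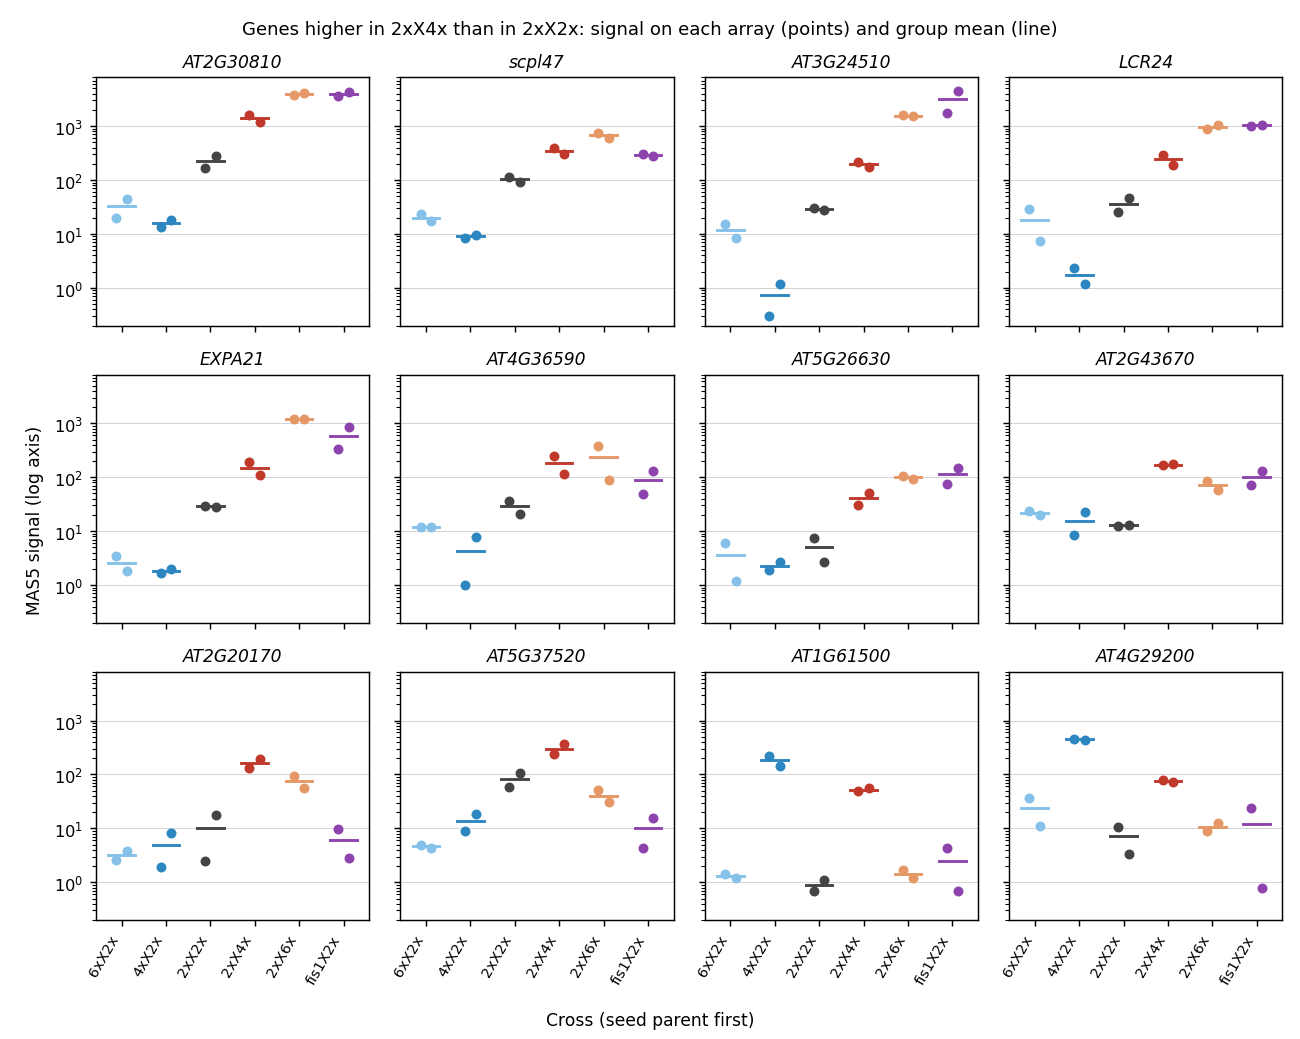
MAS5 signal (log axis) of 12 genes apart upwards in 2xX4x, on both arrays of each of 6 crosses (points, with the group mean as a line). In every panel both 2xX4x points lie above both 2xX2x points, and in the last 2 panels 4xX2x is the highest cross.

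Fewer genes were lower in 2xX4x. Of the 19 probe sets apart downwards 10 had a single annotated gene, none of them called, with changes between log2 -1.75 and -1.24. The median over the 19 of the mean signal was 66.0 in 2xX2x and 25.9 in 2xX4x. GH9C1, an endoglucanase of glycosyl hydrolase family 9, had signals of 211 and 226 in 2xX2x and of 49.8 and 71.0 in 2xX4x (log2 -1.75, SE 0.31, adjusted p = 0.110). AT1G04380, a 2-oxoglutarate-dependent dioxygenase, had signals of 192 and 223 in 2xX2x and of 61.1 and 81.9 in 2xX4x (log2 -1.45, SE 0.25, adjusted p = 0.0989). Its signals of 13.4 and 18.8 in 2xX6x were lower again than in 2xX4x (log2 -1.74, adjusted p = 0.0146, limma). AT1G12080 had signals of 356 and 340 in 2xX2x and of 106 and 127 in 2xX4x (log2 -1.52, SE 0.40, adjusted p = 0.562).

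The remaining genes apart downwards were dimmer. AT2G14690, a xylanase gene by its synonym, had the largest separation among the named genes, with signals of 28.0 and 23.3 in 2xX2x and of 2.6 and 3.5 in 2xX4x (log2 -1.66, SE 0.55, adjusted p = 1.00). AT1G63100, of the GRAS family of transcription factors, was at 37.9 and 44.1 in 2xX2x and 15.2 and 11.0 in 2xX4x. AT1G68440, AT4G19460, AT3G20200 and AT5G10620 were apart as well, with changes between log2 -1.44 and -1.28.

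The few storage and oil body genes that could be tested had lower signals in 2xX4x without large separations. They were 4 of the 22 listed, too few to describe genes of seed maturation as a set. All 4 had 2xX4x arrays below both 2xX2x arrays (15.3% of all kept probe sets did), and none was called or apart by 1. OLEO3, an oleosin, which coats oil bodies, was at 171 and 184 in 2xX2x and 107 and 134 in 2xX4x (log2 -0.54, SE 0.44). AT3G01570, of the oleosin family, was at 41.5 and 20.7 in 2xX2x and 19.9 and 17.4 in 2xX4x (log2 -0.51, SE 0.49). AT4G36700, a cupin-type storage protein gene, was at 254 and 68.8 in 2xX2x and 35.3 and 24.4 in 2xX4x (log2 -1.94, SE 0.79). PAP85, a vicilin-like gene, was at 17.0 and 20.5 in 2xX2x and 9.5 and 0.5 in 2xX4x (log2 -1.18, SE 0.52). The adjusted p was 1.00 for each of these 4 genes. All 4 were higher in 4xX2x than in 2xX4x (adjusted p between 7.35e-04 and 0.0156, limma), with OLEO3 at 1311 and 703 in 4xX2x. In this contrast 3.21% of all kept probe sets were called, and it shares the 2xX4x arrays on which these genes were low. The subtilase gene SBTI1.1 ran in the same direction, at 210 and 89.3 in 2xX2x, 27.2 and 45.9 in 2xX4x and 373 and 338 in 4xX2x (2xX4x against 2xX2x: log2 -1.75, SE 0.37, adjusted p = 0.259).

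**Figure D4:**
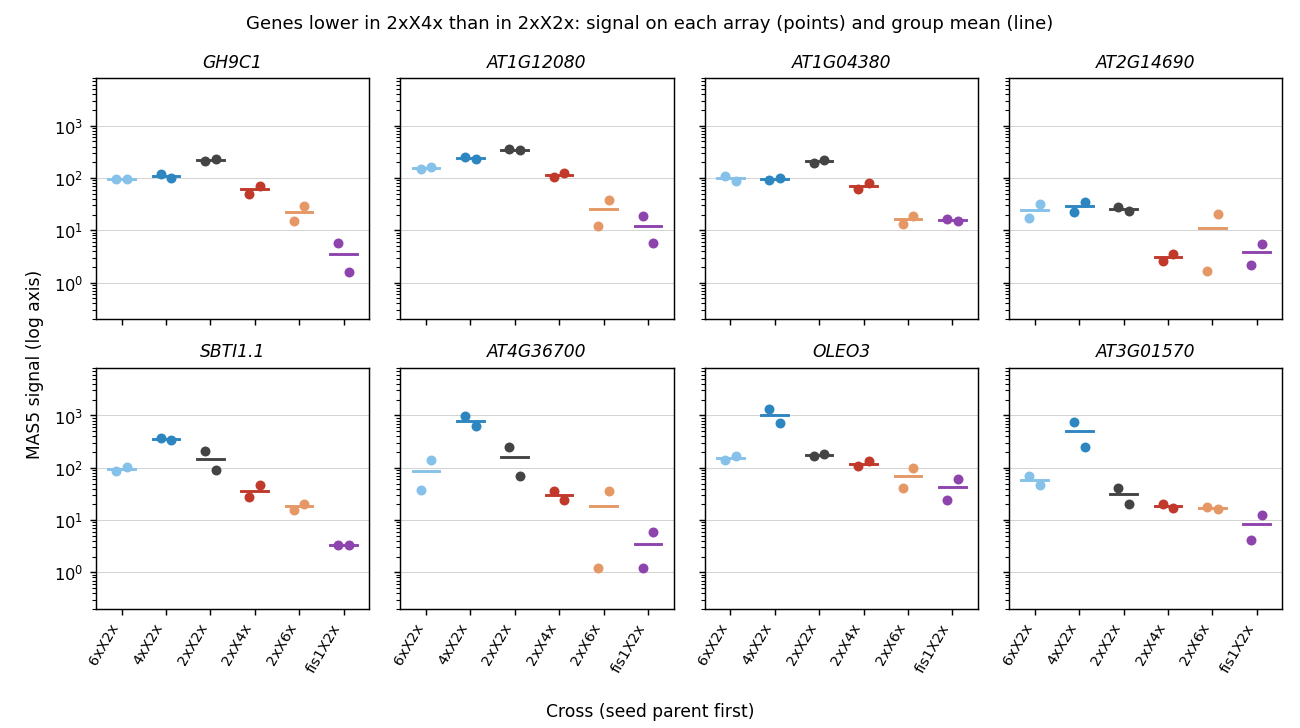
MAS5 signal (log axis) of 8 genes lower in 2xX4x, on both arrays of each of 6 crosses (points, with the group mean as a line). In the first 4 panels the genes were apart by size; the last 4, the subtilase gene SBTI1.1 and 3 storage or oil body genes, had non-overlapping but closer arrays, and OLEO3 reached 1311 and 703 in 4xX2x.

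Hormone and growth lists held few measurable members, and apart from AT2G30810 none of them was called. Of 3 cytokinin genes tested, 2 response regulators had 2xX4x arrays above both 2xX2x arrays, as did 15.8% of all kept probe sets. RR19 was at 27.7 and 52.7 in 2xX2x and 80.2 and 87.6 in 2xX4x (log2 0.99, SE 0.45), and RR22 at 455 and 480 and at 580 and 610. Of 3 gibberellin genes the receptor gene GID1C was above, at 18.1 and 18.8 in 2xX2x and 31.1 and 32.6 in 2xX4x (log2 0.60, SE 0.43). Of 5 auxin genes, whose median change was 0.60, YUC2, an enzyme of auxin synthesis, was the single one without overlap and was below, at 43.6 and 47.9 in 2xX2x and 32.5 and 32.5 in 2xX4x (log2 -0.41, SE 0.33). GH3.3, which conjugates auxin to amino acids, had the largest mean change of the 5, with overlapping signals of 488 and 64.5 in 2xX2x and of 452 and 474 in 2xX4x (log2 1.32, SE 0.65). The adjusted p was 1.00 in each case. Among 14 sugar exporters of the SWEET family, 3 were above and 4 below, near the 15.8% and 15.3% of all kept probe sets. SWEET8 was at 89.7 and 116 in 2xX2x and 182 and 234 in 2xX4x (log2 0.97, SE 0.33), and SWEET4 at 223 and 251 and at 180 and 114 (log2 -0.69, SE 0.48). The median change was -0.04 for 4 genes of mitosis and cytokinesis and -0.11 for 5 core histones, against -0.00 over all genes tested. HTR12 was in both lists. Only 4 of the 27 mitosis and cytokinesis genes listed could be tested, too few to describe cell division genes as a set.

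The study had listed 62 genes as up in both paternal excess crosses and not up in either maternal excess cross. It required a second array platform, with separate samples, to show the same, but since the list was drawn up in part on the arrays used here its direction is not independent evidence. Of the 62 genes 30 could be tested. For 26 of the 30 both 2xX4x arrays lay above both 2xX2x arrays (15.8% of all kept probe sets), 12 were apart by 1 (0.594%), 2 were called (0.0758%) and none lay below. Their median change was 1.40, with a range from 0.27 to 3.15. Tissue markers could be checked only in part. LHCB4.1, a chlorophyll-binding protein of the green silique wall, was at 3463 and 3656 in 2xX2x and 3408 and 3346 in 2xX4x. RCA, the activase of the carbon-fixing enzyme Rubisco, was at 3766 and 3263 in 2xX2x and 3468 and 2436 in 2xX4x (log2 -0.27, SE 0.34, adjusted p = 1.00), and the seed coat genes tested (2 of 22) changed by between -0.13 and 0.05. AGL62, given above, was the single endosperm marker that could be tested, and no embryo or pollen marker was named by a kept probe set, so that a shift in the share of these tissues was not tested.

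The 94 and 19 probe sets were then followed on arrays that had no part in the rule of size. Those arrays did count in the brightness filter, so that a probe set dim in 2xX4x and 2xX2x could be kept through them. The contrast of 2xX6x with 4xX2x, paternal against maternal excess, was tested by limma with its error taken from the 8 arrays of 2xX6x, 4xX2x, fis1X2x and 6xX2x alone, so that the 4 compared arrays entered neither the difference nor the error. In it 301 of all 15823 probe sets were called higher (1.90%) and 186 lower (1.18%). Of the 94 probe sets apart upwards in 2xX4x, 52 were higher (55.3%) and 3 lower (3.19%), and the median difference was log2 2.49 (interquartile range 1.27 to 3.88) against 0.01 over all kept probe sets. Of the 3 that ran the other way 2 were AT1G61500 (log2 -4.41, adjusted p = 0.00106) and AT4G29200 (log2 -4.65, adjusted p = 0.00305). Of the 19 apart downwards none was higher and 6 were lower (31.6%), with a median of -1.14. The most extreme named genes were AT3G24510 (log2 7.60, adjusted p = 1.97e-05) and AT2G30810 (log2 7.43, adjusted p = 1.38e-05).

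A further contrast in the same fit, fis1X2x against 6xX2x, set apart crosses that differ in accession as well. Over all kept probe sets 222 were called higher (1.40%) and 207 lower (1.31%). Of the 94, 40 were higher (42.6%) and 1 lower (1.06%), with a median of log2 1.94 against -0.04 overall. Of the 19, none was higher and 6 were lower (31.6%), with a median of -1.59. GH9C1 was lower in fis1X2x than in 6xX2x (log2 -3.27, adjusted p = 0.00120) and lower in 2xX6x than in 4xX2x (log2 -2.02, adjusted p = 0.0157).

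**Figure D5:**
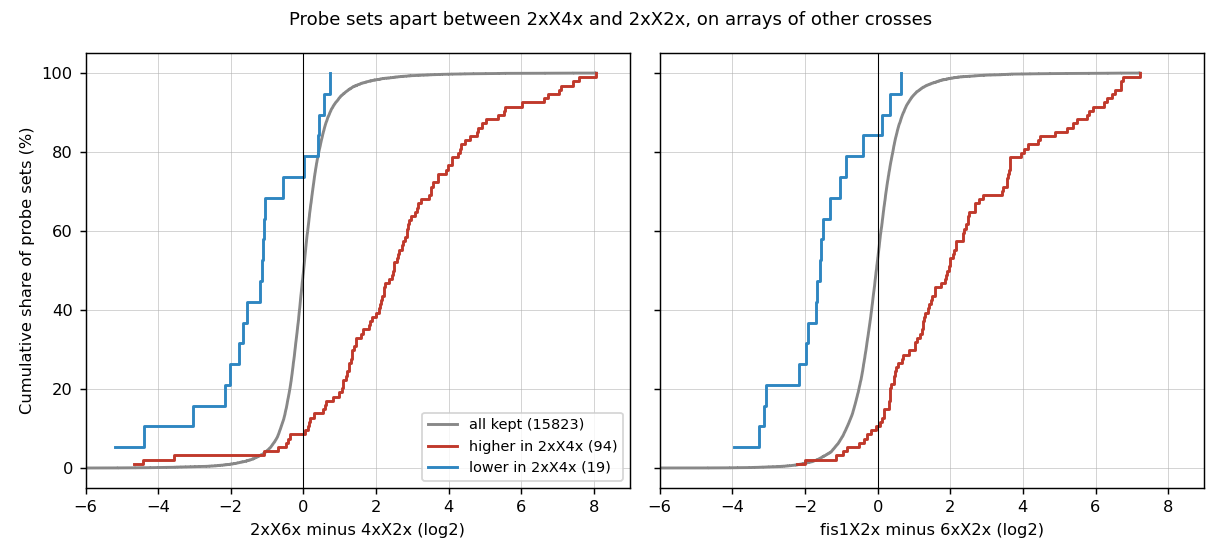
Cumulative share of probe sets by log2 difference, for 2xX6x minus 4xX2x (left) and fis1X2x minus 6xX2x (right). The curve of the 94 probe sets higher in 2xX4x (red) lies to the right of that of all kept probe sets (grey), with medians of 2.49 and 1.94, and that of the 19 lower (blue) to its left, with medians of -1.14 and -1.59.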

How the data were processed

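RNA of whole siliques had been hybridised to Affymetrix ATH1 arrays, 1 per sample. The authors deposited 1 linear signal intensity per probe set and array, computed by the MAS5 method named in the submitters' processing notes (version not given in the sources used here), with every array scaled to the same trimmed mean. Detection calls and the authors' array-to-array comparison values were not used here. The number of arrays, 2 per cross, limits the precision.

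The table holds 22810 probe sets, of which 64 controls were left out. Signals, 63 of them 0, were transformed as log2(signal + 7.4). A probe set was kept if on at least 2 of 12 arrays it exceeded the 40th percentile of that array (15823 kept, 6923 removed). The 12 arrays of crosses with replicates (6 crosses) were fitted with 1 mean per cross in R 4.3.3 by limma 3.58.1, whose eBayes step used an intensity trend (6 residual and 4.89 prior degrees of freedom), with two-sided tests and Benjamini-Hochberg adjustment over all kept probe sets at a threshold of 0.05. The contrasts of 2xX6x with 4xX2x and of fis1X2x with 6xX2x were fitted to the 8 arrays of those crosses alone (4 residual and 5.45 prior degrees of freedom), on the probe sets kept over 12 arrays. The single msi1 array entered no test. The p-values measure the spread between biological replicates, each a pool of siliques. Separation by size and agreement of array pairs were counted with no test. The limma contrast of 2xX4x with 2xX2x was checked on simulated arrays in which the changed probe sets were known. The separation by size, the agreement of array pairs and the fit of 8 arrays were not checked in this way.

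Genes came from the platform annotation (13513 probe sets with 1 gene, 503 with several, 8730 without). The TAIR10.1 gene table, which held a locus for 13436 of the first kind, gave symbols, chromosomes and gene types. The probe set with the highest mean signal stood for a gene. Genes named are those called, the 15 largest separations each way, up to 4 non-overlapping members of each list by size of change, and the measured qRT-PCR genes, with some left out for length; AT4G29200, AT5G37520, AT2G43670 and others are set beside other crosses because of their values. Gene families such as the SWEET, LCR and TBL genes were listed by symbol after the table was opened, as was the addition of the loci AT4G36590 and AT5G26630 under the names the paper gives them. The comparison, the lists and the tests were chosen with earlier results of these data known.

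The alternatives tried changed the offset (left out, or 2 times as large), the normalization (quantile), the filter (none, or the 60th percentile), the set of arrays, array weights, the trend, the replicate number as a block and the size threshold, or left out each array in turn. Python 3.11.15 with pandas 2.3.3 made the tables, and matplotlib 3.10.9 the figures.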

Additional observations from a re-analysis of the deposited data

Results flagged for a closer look

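The limma test of 2xX6x against 2xX4x, whose fathers also differed in accession, called 54 of the 15823 kept probe sets (0.341%), and 6 of the 139 genes open to naming for their values in 2xX4x or their place in a list were among them. AT3G24510, EXPA21 and LCR59 were higher in 2xX6x than in 2xX4x by 2.95, 3.00 and 2.81 on the log2 scale (adjusted p = 0.00844, 0.00844 and 0.0188). AT1G61500, AT5G37520 and AT1G04380 were lower, with differences of -2.74, -2.69 and -1.74 (adjusted p = 0.0170, 0.0266 and 0.0146). LCR59, a defensin-like gene, was near the bottom of the scale in both crosses of the main comparison, at 2.7 and 2.9 in 2xX2x and 3.0 and 8.3 in 2xX4x, and was at 76.0 and 89.2 in 2xX6x.

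The single array of unfertilised msi1 siliques entered no test. Of the 59 named genes apart upwards in 2xX4x, 10 had a signal on it at least 1 on the log2 scale above both 2xX2x arrays, which are the same control arrays as in the comparison that chose the genes. These were AT4G29200 (signal 251), AT3G24510 (290), AT1G61500 (49.9), AT5G26630 (63.3), AT4G30650 (450), AT2G34840 (22.1), AT5G54350 (23.2), AT4G39190 (16.5), AT2G42640 (36.5) and AT1G73560 (87.1). Over all 94 probe sets 20 were at least 1 above both 2xX2x arrays and 19 at least 1 below, with a median difference of -0.18. Of the 19 apart downwards none was above and 14 were below. Over all kept probe sets 3.32% were above and 6.11% below. With 1 array, of siliques aged from flower opening and not from pollination, no difference from 2xX2x was tested.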

How the results depend on the processing

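Limits: with 2 arrays a cross, no detection calls and 18 of 94 higher probe sets starting under the offset, few calls were made and fold sizes of dim genes depend on the offset. Against 13 calls by limma, there were 0 with no offset, 0 in the fit of the 4 compared arrays alone and 0 in that of the 6 all-C24 arrays, and 28 with array weights. Leaving out 1 array of the 12 gave between 0 and 18 calls; the array left of that cross was given the spread of the others. The remaining planned fits gave 11 to 18 calls. Against 113 probe sets apart by size, there were 182 with no offset (136 higher, 46 lower) and 74 with the 60th percentile filter (64 and 10). A size of 0.6 gave 313 and a size of 2 gave 20. The doubled offset gave 79 (68 and 11), quantile normalization 112 (97 and 15) and no filter 143 (106 and 37). The correlation of array pairs was between 0.107 and 0.192 for same-numbered pairs and turned to -0.172 for the crossed pairs. Of 2780 values of 139 genes under 20 alternatives, 2778 kept their sign; the exceptions were AGL28 (between -0.67 and 0.24 with 1 array left out, 0.24 without 2xX2x replicate 2) and LHCB4.1 (0.01 after quantile normalization), neither called.

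With the replicate number as a block the count was 11. The labels do not say that a number marks a shared batch. The replicate differences (replicate 1 minus 2) of 2xX2x correlated with those of 2xX4x (r = 0.34) and 2xX6x (0.42), and those of 2xX4x with 2xX6x (0.29), but not with the other crosses (-0.24 to 0.09). Chosen after seeing the data, the block in a fit of the 6 arrays of these 3 crosses gave 31 calls (30 higher, 1 lower), 12 of them among the 13, and 11 without it; leaving out both 6xX2x arrays gave 13, and 149 probe sets were apart in both same-numbered pairs. With the error from all 12 arrays, also chosen after seeing the data, 2xX6x against 4xX2x gave 388 higher and 239 lower (57 and 3 of the 94; 0 and 7 of the 19), and fis1X2x against 6xX2x 308 and 316 (48 and 2; 0 and 7).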

Other observations

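Genes of the chloroplast genome differed between the replicate arrays of 5 of the 6 crosses, in a direction that depended on the cross. Of 69 such genes tested, 0 differed by at least 1 on the log2 scale between 2xX4x and 2xX2x in either same-numbered pair of arrays, whereas 2xX4x replicate 1 was at least 1 above 2xX2x replicate 2 for 23 and 2xX4x replicate 2 at least 1 below 2xX2x replicate 1 for 27. Replicate 1 was at least 1 above replicate 2 for 24 in 2xX2x, 24 in 2xX4x and 22 in 2xX6x, against 6.84%, 2.55% and 4.48% of all kept probe sets. In 4xX2x and 6xX2x the order was opposite, with replicate 2 higher by at least 1 for 37 and 59, and in fis1X2x 3 genes were higher by that much on each replicate (median -0.05). The gene rpl20, for a ribosomal protein, was at 680 on replicate 1 and 86.5 on replicate 2 of 2xX2x, and at 528 and 110 in 2xX4x. The gene petN, for a subunit of the cytochrome b6f complex, was at 306 and 69.3 in 2xX2x and at 334 and 42.3 in 2xX4x. Over all kept probe sets, 77 were at least 1 higher on replicate 1 in each of 2xX2x, 2xX4x and 2xX6x, and 13 on replicate 2. What sets the replicates apart was not tested.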
